A study of Homo sapiens with 4 samples.

Results

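Histone genes were followed in SUM149 cells, a human line grown from a breast cancer of the inflammatory kind, before and during exposure to ACY1215 (Ricolinostat), a small molecule designed to inhibit the deacetylase HDAC6. The 87 genes were taken by symbol from the 34755 genes of the array, namely every symbol starting with HIST1H, HIST2H, HIST3H, HIST4H, H1F, H2AF, H2BF or H3F, and they were covered by 110 probes. Of these, 67 were protein-coding genes of the histone clusters, 17 were protein-coding variant genes outside the clusters, and 3 were an antisense transcript (H1FX-AS1) and the pseudogenes HIST1H2APS1 and HIST2H2BA, which were counted apart. The 4 samples were untreated SUM149 cells and SUM149 cells after 3, 6 and 12 h with 2.5 uM of ACY1215, each from plated cells left to attach for a day and each read on 1 two-colour Agilent array. Cy5 held the sample and Cy3 a reference labelled as RNA pooled from the untreated and treated SUM149 cells. There was 1 array per time and no array of vehicle-treated cells was analysed here, so no test between times was possible, and treatment and time in culture cannot be told apart.

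Histones are the proteins around which DNA is wound. Pairs of H2A, H2B, H3 and H4 form the core of the nucleosome and H1 binds the linker DNA between cores. Most histone genes lie in clusters, are read mainly in S phase when DNA is copied, lack introns and give mRNAs that end in a stem-loop in place of a poly(A) tail. Stem-loop binding protein (SLBP) and the U7 small nuclear RNP make that end. Variant histones such as H3.3, H2A.Z, macroH2A and H1.0 come from single genes outside the clusters, are made throughout the cell cycle and give polyadenylated mRNAs. The labelling kit of these arrays primes from poly(A), and several clustered genes are known to give some polyadenylated transcript as well, so how much of each probe's signal came from either kind of RNA was not tested.

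Each change given is the log2(Cy5/Cy3) of a treated array minus the log2(Cy5/Cy3) of the untreated array, from the brightest probe of the gene in Cy3, after loess within arrays. A gene was measured when its probe stood well above background in Cy5 and in Cy3 on the treated and the untreated array. Between repeated spots of 300 probes with 9 or more spots, the median SD of such a change was 0.11 at 3, 6 and 12 h alike, which covers spot-to-spot error within an array only. The probe sequences were not used here, and clustered histone genes of one class are close to identical in their coding parts, so values of single genes are uncertain as to which copy they report.

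The clustered histone genes were lower after ACY1215 in a graded way, whereas the variants were not, except under median centring of the arrays at 6 and 12 h. Among the 63 measured clustered genes the median log2 change was -0.11 at 3 h, -0.29 at 6 h and -0.42 at 12 h, where the median of all genes measured was 0.0075, 0.016 and 0.014. At 12 h 51 of the 63 were below 0, beside 47.5% of all genes. Of the 63, 47 were lower by more than the technical SD, compared with 6392 of all 20477 genes measured (31.2%). The variants had medians of 0.035 over 14 genes at 3 h, 0.073 over 14 at 6 h and 0.21 over 13 at 12 h. Under median centring the variant medians were -0.052 at 6 h and -0.17 at 12 h, beside -0.084 and -0.16 for all genes. In bulk RNA, fewer cells in S phase and less histone RNA per cell cannot be told apart.

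The changes were moderate in size. No measured histone gene passed 2-fold in either direction at any time. Under other settings a few did so, HIST1H2AG and H1F0 among them, and 13 genes fell past it at 12 h under median centring. The share of all genes past 2-fold under that scaling is not given here. At 1.5-fold it had 2838 of all 20477 genes falling at 12 h, compared with 1049 after loess. After loess, 2-fold rises over the whole array made up 1.69% of measured genes at 3 h, 2.82% at 6 h and 2.34% at 12 h. The 2-fold falls made up 0.371%, 0.939% and 1.12%. At 1.5-fold, 16 of 63 clustered genes fell at 12 h (25.4%), beside 5.12% of all genes, and 0 of 13 variants did. At 6 h 4 of 63 clustered genes fell 1.5-fold, beside 4.42% of all genes, and at 3 h 0 of 63 did, beside 1.96%. Rises of 1.5-fold were seen for HIST1H1A, H1F0 and H3F3A at 3 h, for H1F0 at 6 h and for H1F0 and H2AFJ at 12 h, beside 6.88%, 9.41% and 8.10% of all genes. The order of the 4 arrays ran steadily downwards from untreated through 3 and 6 to 12 h for 37 of 63 clustered genes and for 1 of 13 variants, H2AFZ, beside 9.16% of the 19888 genes measured at every time.

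**Figure D1:**
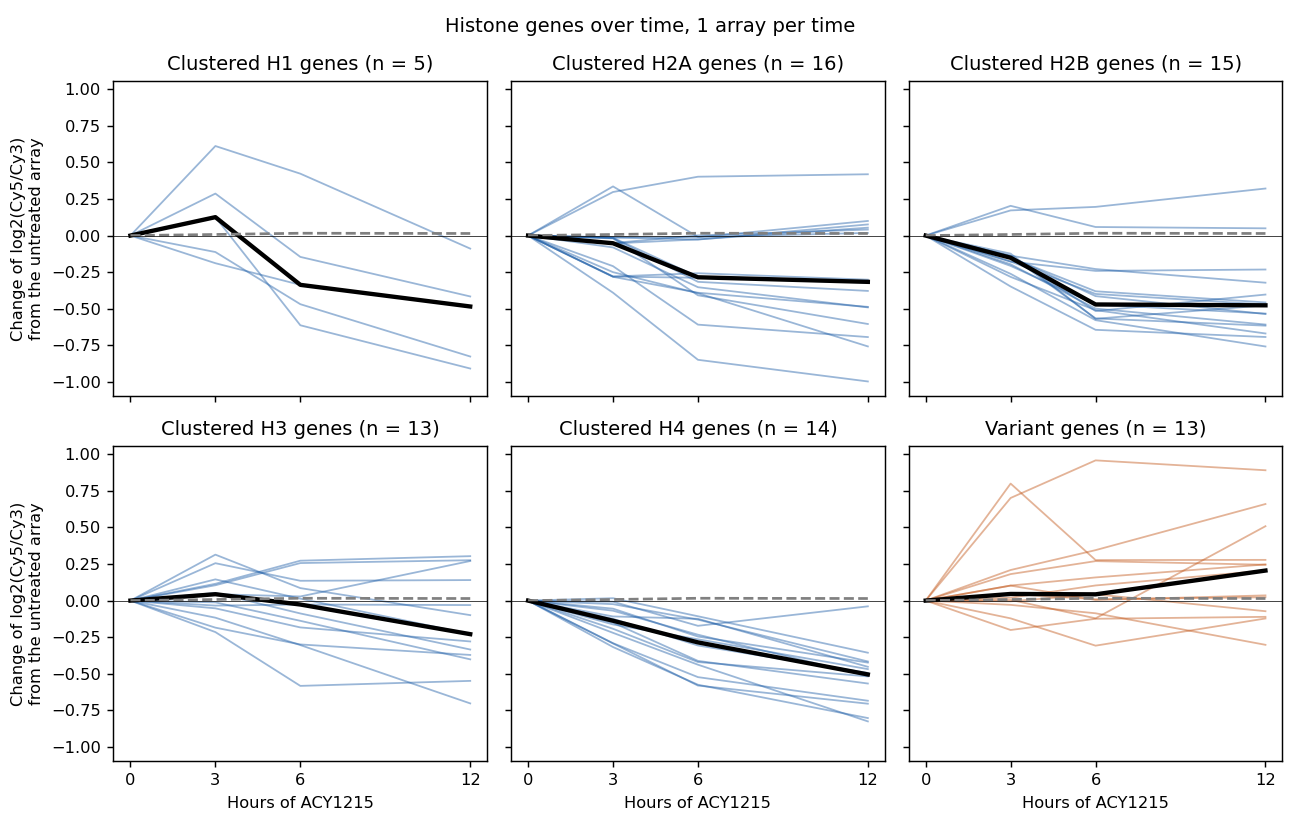
Change of log2(Cy5/Cy3) from the untreated array against hours of ACY1215, for each clustered histone class and for the variants; each thin line is 1 gene measured on all 4 arrays, the black line is the median of the panel and the dashed grey line the median of all genes. Clustered H4 and H2B lines run downwards almost together, and H3 and H2A lines split into a group that is lower and a group near or above 0. The variant lines lie mostly above 0. Under median centring 9 of 13 variants were below 0 at 12 h, beside 70.9% of all genes.

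The size of these shifts depended on how the arrays were scaled. With each array only centred on its median, the median of all genes was itself -0.16 at 12 h, and bright probes moved more than dim ones, since it was -0.049 among the 7416 genes with an untreated Cy5 signal under 100 units and -0.37 among the 5154 genes with 1000 or more. Of the measured clustered genes 44 were that bright. Clustered genes then stood at a median of -0.81 and variants at -0.17, so the variant median went from above to below 0 under that scaling. In the Cy5 channel alone the 12 h medians were -0.53 for clustered genes and 0 for variants, while the Cy3 reference differed from its untreated array by a median of 0.0092 over the same clustered genes. The position of clustered genes below variants was thus present under each of these scalings. Of the 63 clustered genes, 51 were below 0 at 12 h in all 7 settings of background and scaling compared, 2 were above 0 in all 7 and 10 changed sign. The 7 settings rescale the same 4 arrays, and the share of all genes below 0 in all 7 is not given here. In single settings, 47.5% of all genes were below 0 after loess, 53.6% in Cy5 alone and 70.9% under median centring.

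The cells' markers were read beside the label. Of 9 epithelial, basal and mesenchymal markers such as KRT5, EPCAM and VIM, 7 were well above background on all 4 arrays, and the other 2 (KRT6A and KRT14) on the 3 treated arrays, their untreated spots being flagged. PGR, COL3A1 and HBB were not above background on any array, whereas ESR1, ERBB2 and 6 of 8 genes of blood, stroma, vessel or liver cells were above it at 32 to 476 units of Cy5, where the 7 markers lay at 537 units or more. The Cy3 reference did not sit among the samples for every histone gene. Of the 76 genes measured at all times, 6, namely HIST1H1C, HIST1H1D, HIST2H2AA4, HIST2H2AB, H1F0 and H2AFY2, had a log2 ratio under -1 on all 4 arrays, and 3 had a ratio over 1 on all 4, so only changes between arrays are compared. Areas with a surface defect held 3.37% of the spots of the untreated array and 4.65% of the 3 h array, compared with 0.186% at 6 h and 0.0082% at 12 h.

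Of the linker histone genes, HIST1H1B was the lowest. This gene, which encodes H1.5, had log2 ratios of 1.04 untreated, 1.17 at 3 h, 0.43 at 6 h and 0.13 at 12 h, a change of -0.91 at 12 h. Its 3 h spot lay in a damaged area, where Cy5 alone gave a change of -1.45 against 0.13 in the ratio, so its 3 h value is unsettled. HIST1H1E (H1.4) read -0.74, -0.85, -1.21 and -1.56 in the same order of arrays, lower on each array than on the one before. HIST1H1A (H1.1) moved the other way at first, with ratios of 3.20, 3.82, 3.63 and 3.11. It was 0.61 above the untreated array at 3 h and 0.09 below it at 12 h, and Cy5 alone gave 0.79 at 3 h and -0.07 at 12 h. All 5 measured clustered H1 genes were below 0 at 12 h, 4 by more than the technical SD, beside 47.5% and 31.2% of all genes. HIST1H1T, a testis H1 gene, was not above background on any array.

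The H2A genes split into those that were lower and those that hardly moved. The lowest value of any histone gene belonged to HIST1H2AG, whose log2 ratio was 0.01 untreated, -0.38 at 3 h, -0.84 at 6 h and -0.99 at 12 h. Its change of -0.998 at 12 h stopped just short of 2-fold, and Cy5 alone put it at -1.26. For HIST1H2AL, at -0.76 in the ratio at 12 h, Cy5 alone gave -1.61 at 3 h against -0.25 in the ratio, where its Cy3 reference signal stood at -1.23 against the untreated array as well. HIST2H2AC at -0.69 and HIST1H2AI at -0.60 came next. By contrast, HIST1H2AM, HIST1H2AB, HIST1H2AH, HIST1H2AK and HIST1H2AJ had changes of 0.02 to 0.10 at 12 h, all within the technical SD, though under median centring they were at -0.28 to -0.39, and the other probe of HIST1H2AM, also bright, gave -0.80. HIST3H2A was the highest, with ratios of 0.14, 0.43, 0.54 and 0.56 and a change of 0.42 at 12 h, and it stayed above 0 in all 7 settings on a dim probe (95 units of Cy5 over a background near 24). Over the 16 measured H2A genes the median change at 12 h was -0.32.

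Most H2B genes were lower. At 12 h 13 of 15 measured clustered H2B genes were lower by more than the technical SD, beside 31.2% of all genes. By then 5 of the 15 had fallen at least 1.5-fold, beside 5.12% of all genes. HIST1H2BC was the lowest, with ratios of -0.50, -0.76, -1.07 and -1.25 and a 12 h change of -0.76. Every measured H2B gene of the large cluster on chromosome 6 was among the 13, from HIST1H2BC up to HIST1H2BN at -0.23. The 2 above 0 were HIST3H2BB, at 0.05, and HIST2H2BE, with ratios of -1.05, -0.88, -0.86 and -0.73. HIST2H2BE was read on a probe with only 28.5 units of Cy5, and its brighter probe in Cy5, at 76 units, gave a change of -0.20 against 0.32, so its direction is unsettled. The brightest probe of HIST1H2BK was flagged as an outlier on the untreated array, in one of its damaged areas. Its other probe read -0.66, -0.90, -0.90 and -1.16, a 12 h change of -0.50.

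H2A and H2B genes often stand head to head and share the stretch of DNA between their starts. Among the promoters that RefSeq lists, 11 such pairs were found for the clustered genes, with 194 to 248 bases between the starts, and 10 had both genes measured. In 5 pairs both genes were below 0 at 12 h, in 1 both were above 0, and in 4 the partners had opposite signs. The sign of 1 partner is unsettled in the pair above 0 and in each of the 4. HIST1H2AG and HIST1H2BJ, the pair holding the lowest gene, changed by -0.998 and -0.47. HIST3H2A and HIST3H2BB, on chromosome 1, changed by 0.42 and 0.05. The HIST3H2BB value was within the technical SD and became -0.14 under median centring and -0.02 in Cy5 alone. In HIST1H2AM/HIST1H2BO, HIST1H2AK/HIST1H2BN and HIST1H2AJ/HIST1H2BM only the H2B gene was below 0 in the ratio, but these H2A values, 0.02, 0.08 and 0.10, were within the technical SD and stood at -0.36, -0.36 and -0.35 under median centring, and the other probe of HIST1H2AM gave -0.80. In HIST2H2AC/HIST2H2BE only the H2A gene was below 0, on the HIST2H2BE probe whose direction is unsettled.

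**Figure D2:**
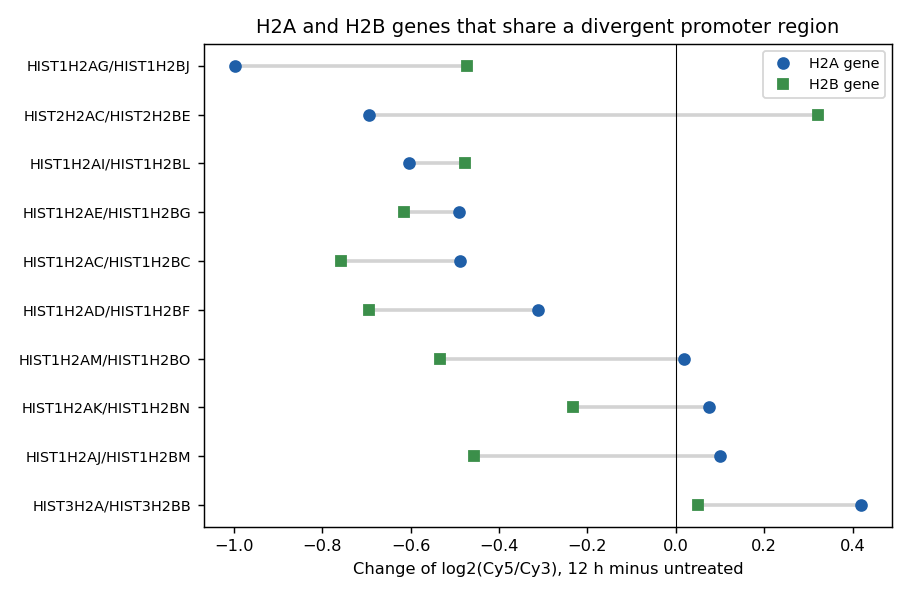
Change of log2(Cy5/Cy3) at 12 h for 10 head-to-head pairs, with the H2A gene as a circle, the H2B gene as a square and a line joining partners. The 5 pairs with both points left of 0 stand beside HIST3H2A/HIST3H2BB, the 1 pair with both points right of it. The other 4 pairs straddle 0 with 1 partner of unsettled sign, and the sign of HIST3H2BB is unsettled too.

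Regions are printed so that their elements can be compared. They include the shared region of the pair holding the lowest gene and that of the cluster 3 pair, above 0 in the ratio. The others lie before HIST1H2BC, the lowest H2B gene, and before HIST1H4E, the H4 gene with the second lowest 12 h change. Each line gives the 250 bases before the RefSeq start (GRCh38.p14) on the strand of the named gene, with capitals for the octamer ATTTGCAT, for CCAAT and for TATAAA, each searched on both strands, where TATAAA and its reverse complement may overlap. The octamer is the letter sequence bound by OCT1 (POU2F1), the factor of H2B promoters. HIST1H2AG (current symbol H2AC11) lies on chromosome 6 at chr6:27132793-27133042, plus strand. HIST3H2A (H2AC25) is at chr1:228457874-228458123, minus strand. HIST1H2BC (H2BC4) is at chr6:26123927-26124176, minus strand, and HIST1H4E (H4C5) at chr6:26204360-26204609, plus strand.
HIST1H2AG: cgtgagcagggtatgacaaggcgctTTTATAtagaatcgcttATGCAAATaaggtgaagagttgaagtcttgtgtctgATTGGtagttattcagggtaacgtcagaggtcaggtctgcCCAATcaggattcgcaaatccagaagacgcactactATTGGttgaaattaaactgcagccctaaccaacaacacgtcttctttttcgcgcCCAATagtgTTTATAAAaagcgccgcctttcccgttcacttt
HIST3H2A: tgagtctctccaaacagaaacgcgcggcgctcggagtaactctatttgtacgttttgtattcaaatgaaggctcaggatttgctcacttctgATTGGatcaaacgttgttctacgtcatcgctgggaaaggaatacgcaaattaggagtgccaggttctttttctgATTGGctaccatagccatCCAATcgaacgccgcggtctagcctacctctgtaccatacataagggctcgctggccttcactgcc
HIST1H2BC: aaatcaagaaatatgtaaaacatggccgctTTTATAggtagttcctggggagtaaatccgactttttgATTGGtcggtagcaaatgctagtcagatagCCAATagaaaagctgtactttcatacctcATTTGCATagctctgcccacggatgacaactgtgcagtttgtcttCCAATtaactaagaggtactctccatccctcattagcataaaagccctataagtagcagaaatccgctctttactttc
HIST1H4E: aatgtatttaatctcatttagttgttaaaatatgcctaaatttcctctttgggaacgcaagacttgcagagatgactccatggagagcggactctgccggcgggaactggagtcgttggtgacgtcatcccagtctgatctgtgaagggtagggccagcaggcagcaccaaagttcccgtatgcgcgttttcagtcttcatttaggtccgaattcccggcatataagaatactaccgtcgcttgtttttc

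The HIST1H2AG region held 1 octamer, 4 CCAAT letters and TATAAA at both ends, and the HIST1H2BC region 1 octamer, 3 CCAAT and 1 TATAAA, read on the strand opposite to the gene. The HIST3H2A region held 3 CCAAT but no exact octamer and no TATAAA, and the HIST1H4E region held none of the 3. Over the 62 clustered genes with a promoter entry, 41.9% held the octamer, compared with 0 of 15 variants and 1.63% of all 35116 promoters. By class, the octamer was in 11 of 15 H2A and 14 of 18 H2B promoters, in 1 of 11 H3 promoters and in none of 6 H1 or 12 H4 promoters. CCAAT was found in 85.5% of clustered promoters, though in only 3 of 12 of class H4, in 12 of 15 variant promoters and in 32% of all promoters. TATAAA was found in 66.1% of clustered, 3 of 15 variant and 10.7% of all promoters. Among measured H2A and H2B genes, the 22 with an octamer had a median 12 h change of -0.48, from -0.998 to 0.32, and the 8 without one had -0.27, from -0.61 to 0.42, ranges that overlap over most of their length.

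Clustered H3 genes, like H2A genes, lay on both sides of 0. HIST1H3B had the lowest 12 h change, with ratios of 0.06, -0.05, -0.24 and -0.64 and a change of -0.70, and HIST2H3A followed at -0.55. HIST3H3 was the highest, with ratios of 0.31, 0.43, 0.59 and 0.62 and a change of 0.30, and HIST1H3A at 0.28, HIST1H3J at 0.27 and HIST1H3E at 0.14 also lay above the technical SD. In all, 7 of 13 were lower by more than that SD and 4 were higher, beside 31.2% and 36.3% of all genes. All 4 higher genes had bright probes and turned negative, to between -0.17 and -0.29, under median centring, and in Cy5 alone they lay between -0.03 and 0.10, within the technical SD. The median of the class was -0.23 at 12 h.

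H4 genes were lower throughout. All 14 measured genes were below 0 at 6 h and at 12 h, beside 47.2% and 47.5% of all genes. Of the 14, 13 were lower by more than the technical SD at each of those times, beside 29.9% and 31.2%. The 12 h median was -0.50 and lay between -0.93 and -0.50 under every alternative run. HIST1H4A, the lowest, had ratios of 0.22, 0.00, -0.22 and -0.60 and a change of -0.83, and its other probe gave -0.84. HIST1H4E read 0.08, -0.24, -0.50 and -0.72, a change of -0.80. HIST1H4G, read on a dim probe of 59 units, was the only one within the technical SD at 12 h, at -0.04, with ratios of 0.03, 0.02, -0.14 and -0.01. HIST4H4, the only gene of cluster 4, changed by -0.47.

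**Figure D3:**
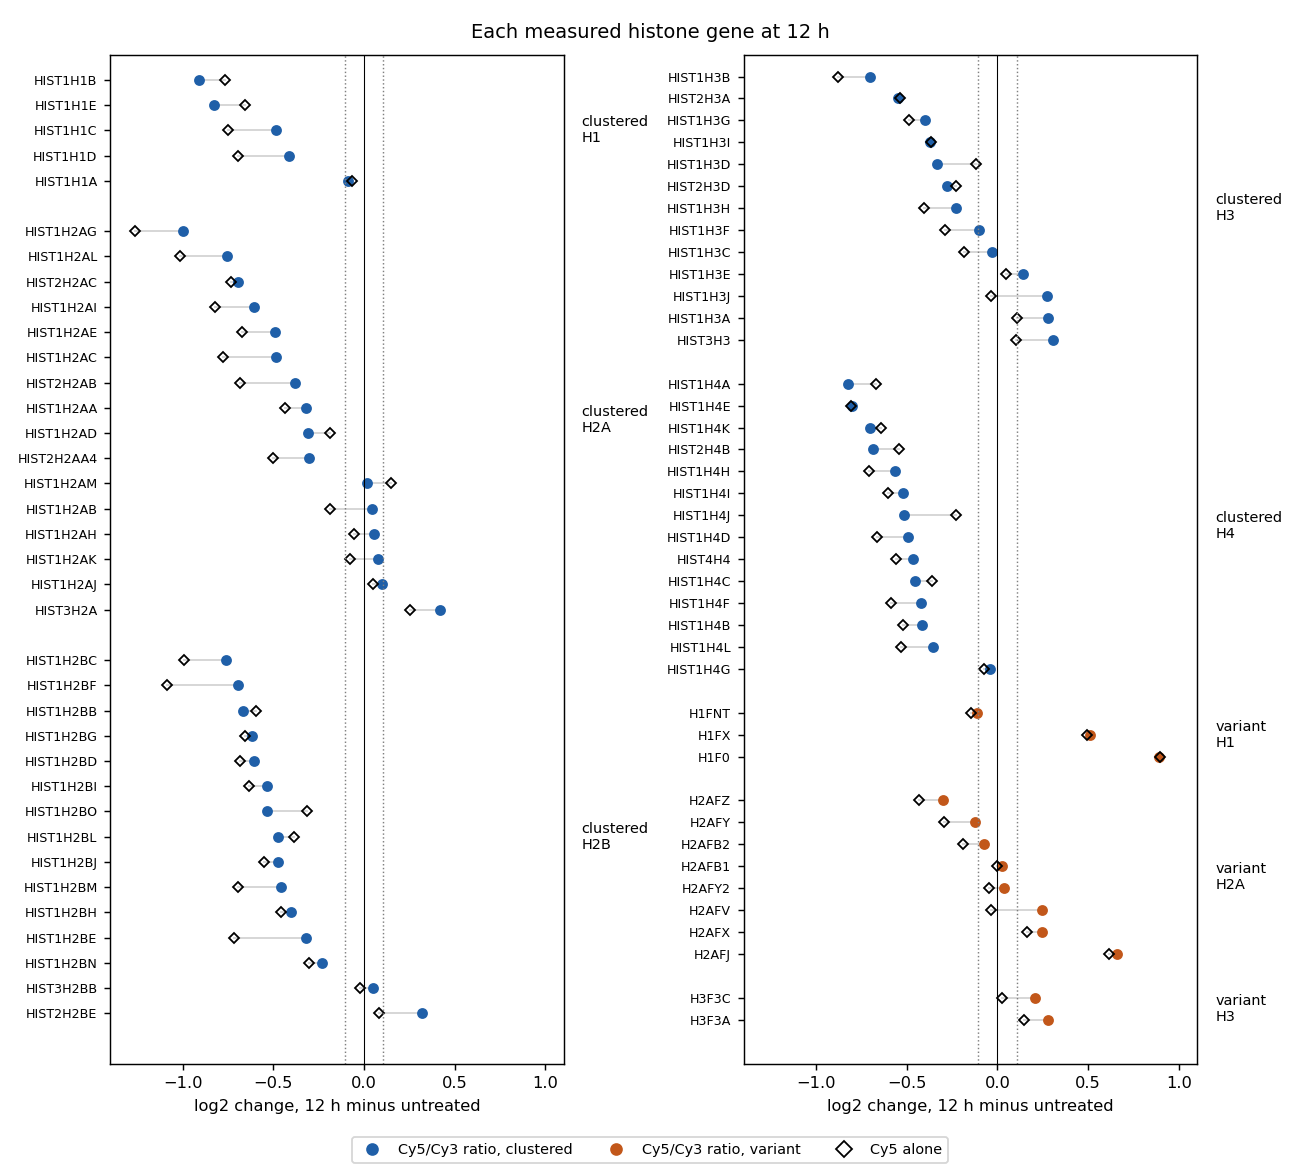
The log2 change at 12 h of each of the 76 measured histone genes, sorted within class, as the Cy5/Cy3 ratio (filled circles, blue for clustered and orange for variant genes) and from Cy5 alone (open diamonds); dotted lines mark 1 technical SD on either side of 0. H4 genes and H2B genes of cluster 1 lie left of 0 by both readings, and H1F0, H2AFJ and H1FX stand to the right by both.

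By cluster, the 52 measured genes of cluster 1 on chromosome 6 had a 12 h median of -0.46 and the 7 of cluster 2 on chromosome 1 a median of -0.38. The 3 genes of cluster 3 on chromosome 1 were all above 0 at each time, with a median of 0.30, though 2 of them (HIST3H3 and HIST3H2BB) were below 0 under median centring. A small set of clustered genes known to give polyadenylated transcripts was read separately. It was chosen from general knowledge and holds HIST1H1C, HIST1H2AC, HIST1H2BC, HIST1H2BD, HIST1H2BJ, HIST1H2BK, HIST2H2BE and HIST1H4H. Of its 7 measured genes, 6 were lower by more than the technical SD at 3, 6 and 12 h, beside 29.0%, 29.9% and 31.2% of all genes, with medians of -0.19, -0.40 and -0.49. HIST1H1C (H1.2) read -3.08, -3.27, -3.42 and -3.56, a small step down on each array far below the reference. HIST1H2BD read -0.65, -0.85, -1.15 and -1.26, and HIST1H2BJ -0.41, -0.59, -0.81 and -0.88. HIST1H2AC read -0.51, -0.79, -0.90 and -0.99, and both its other probes were lower as well, at -0.63 and -0.57 at 12 h. HIST1H4H read 0.01, -0.14, -0.40 and -0.56. Over all clustered genes the medians were -0.11, -0.29 and -0.42, and the difference between these sets was not tested.

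The variants differed from one another. H1F0, which encodes H1.0, the linker histone of non-dividing cells, showed the largest rise, with ratios of -2.83, -2.13, -1.87 and -1.94, a change of 0.70 at 3 h, 0.96 at 6 h and 0.89 at 12 h. In Cy5 alone its 3 h change was 0.19 and its 12 h change 0.89, and with a normexp offset of 1, which shrinks dim probes less, it reached 1.18 at 6 h and 1.14 at 12 h, past 2-fold. Its untreated Cy5 signal of 113 units was well above background and its spot lay outside damaged areas. H1FX (H1.10) was level until 6 h and then higher, with ratios of -1.26, -1.26, -1.38 and -0.75. H1FNT, a testis H1 gene, was the lowest H1 variant, with ratios of 0.14, -0.06, 0.02 and 0.03 and a change of -0.11. H1FOO, the oocyte form, was not above background.

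Among H2A variants, H2AFJ (H2A.J) had ratios of 1.59, 1.80, 1.94 and 2.25 and a change of 0.66 at 12 h, or 0.61 in Cy5 alone. Under median centring its changes were 0.28, 0.097 and 0.22, which is not stepwise and short of 1.5-fold. H2AFZ (H2A.Z) went the other way late, with ratios of 0.60, 0.57, 0.52 and 0.30 and a change of -0.30. H2AFY (macroH2A1) was lowest at 6 h, at -0.31, and stood at -0.12 at 12 h. H2AFX, whose protein is phosphorylated at DNA breaks, was at 0.10, 0.16 and 0.25 and H2AFV (H2A.Z.2) at 0.18, 0.27 and 0.25, and both turned negative at 12 h under median centring, to -0.17 and -0.26. H2AFB1, H2AFB2 and H2AFY2 stayed within the technical SD at 12 h on probes of 32 to 40 units. The 8 measured H2A variants lay on both sides of 0, with a median of 0.03.

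The replacement H3.3 gene H3F3A gave ratios of 0.70, 1.5, 0.98 and 0.98. Its change of 0.80 at 3 h came from a spot in the damaged area of that array, where Cy5 alone gave -0.37, and its 2 other probes gave 0.23 and 0.05. At 12 h the 3 probes gave 0.28, 0.44 and 0.18. H3F3C, a related intronless gene, read -0.65, -0.63, -0.55 and -0.45, a change of 0.21. Both H3 genes were at -0.26 at 12 h under median centring. For genes seen on some arrays only, a bound was set in Cy5 against the higher of the gene's own signal and the lowest signal called above background. H2AFB3 was not above background at 12 h, and its untreated signal was at least 1.08-fold higher, close to background itself. H2BFWT was above background at 6 h only, at least 2.68-fold over the untreated array, on a spot in the damaged area of the 6 h array. H2BFM, HIST1H2BA and HIST2H2BF were not above background on any array, nor was the pseudogene HIST2H2BA, while H1FX-AS1 changed by -0.12 and HIST1H2APS1 by -0.21 at 12 h.

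Genes with more than 1 measured probe gave a check within the array. For clustered genes 13 further probes of 12 genes were measured, of which 12 were below 0 at 12 h, and the median gap to the probe used was 0.19. The exceptions were large. HIST1H2AG had a second probe at 0.05, with 39 units of Cy5 against 1526 units on the probe used, so its fall was not seen on the dim probe. HIST1H2AM was at 0.02 on the probe used and at -0.80 on the other, and HIST2H2BE at 0.32 and -0.20. Both probes of HIST1H2AM were bright, at 4373 and 1338 units, and differed by 0.82, which is more than the technical SD of 0.11. Among variants, the other probe of H2AFJ gave 0.09 at 41.5 units and that of H2AFV 0.70 at 68 units, in the same direction as the probes used.

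**Figure D4:**
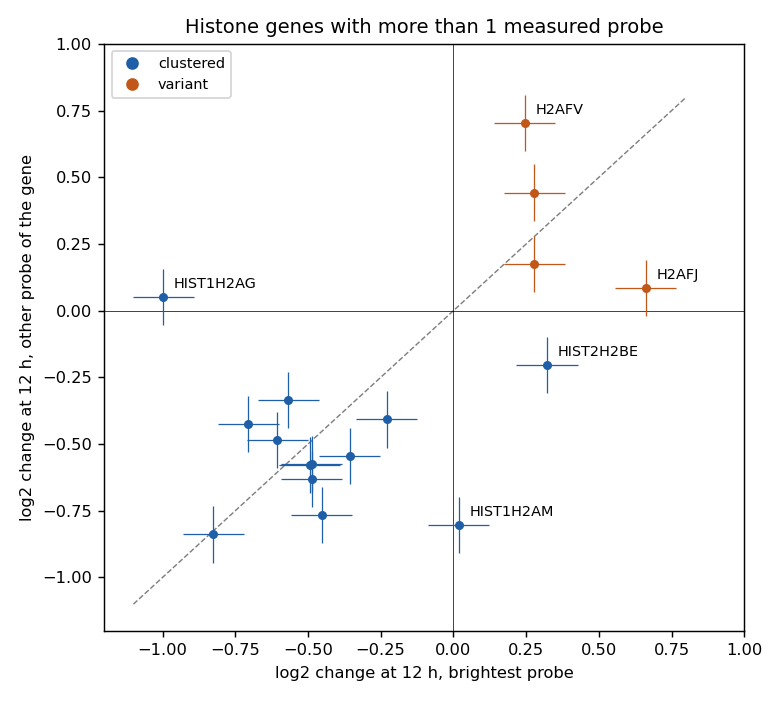
The 12 h log2 change of the probe used for a histone gene (horizontal axis) against that of each further measured probe of the same gene (vertical axis), with bars of 1 technical SD and a dashed line of equality. Most points lie near the line at the lower left, and HIST1H2AG, HIST1H2AM, HIST2H2BE, H2AFV and H2AFJ stand away from it.

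Genes that make and handle histone mRNA and protein were read from lists. The 12 genes of histone gene transcription had a 12 h median of -0.13, or -0.16 in Cy5 alone and -0.41 under median centring. They lay between NFYC, a subunit of the CCAAT-binding factor NF-Y, at -0.92 and the kinase CDK2 at 0.89. At 1.5-fold 2 of the 12 had risen, CDK2 and CCNE1, beside 8.10% of all genes, and 1 had fallen, NFYC, beside 5.12%. NPAT, the coactivator that cyclin E and CDK2 act on at histone genes, read -0.08, 0.79, 0.66 and 0.40, a change of 0.87 at 3 h that had shrunk to 0.48 at 12 h. CCNE1 (cyclin E1) was at 0.59 and CCNE2 at -0.51 at 12 h, and under median centring they were at 0.25 and -0.78. In all 7 of the 12 were below 0 at 12 h, beside 47.5% of all genes. They included E2F1 at -0.35, NFYA at -0.34, NFYB at -0.31 and YY1 at -0.21.

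Of 20 genes of histone mRNA 3′ end processing and decay, 10 were higher and 6 lower by more than the technical SD at 12 h, beside 36.3% and 31.2% of all genes. The list median of 0.10 became -0.058 in Cy5 alone and -0.18 under median centring. At 12 h 1 gene had risen at least 1.5-fold, beside 8.10% of all genes. SLBP itself read 0.95, 1.37, 1.60 and 1.34, highest at 6 h, though its 12 h change of 0.39 became -0.02 under median centring. ZCCHC6, a terminal uridylyltransferase, was the highest at 0.68, and SYMPK (symplekin), a scaffold of the cleavage complex, the lowest at -0.49. UPF1, an RNA helicase that acts in histone mRNA decay, stood at -0.47. The list moved in no single direction.

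The 30 histone chaperones and import factors had a 12 h median of 0.0083, which became -0.071 in Cy5 alone and -0.26 under median centring. ASF1A, a chaperone of H3 and H4, read -0.02, 0.76, 0.81 and 0.94, a rise of 0.96 at 12 h. It was the only one of the list past 1.5-fold upwards, beside 8.10% of all genes. HAT1, which acetylates newly made H4, was at 0.54, or at 0.15 under median centring. ATRX, which deposits H3.3 together with DAXX, was at -0.62 and the importin IPO4 at -0.60. These were the only 2 past 1.5-fold downwards, beside 5.12% of all genes. Of the histone fold proteins outside the symbol rule, CENPW was at 0.78, CENPA (the centromeric H3) at -0.09 and CENPT at 0.0033.

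S phase markers were lower together with the clustered genes. Of 20, 16 were lower by more than the technical SD at 12 h, beside 31.2% of all genes, and 4 were higher, beside 36.3%. The medians of the list were -0.13, -0.15 and -0.28 at 3, 6 and 12 h. At 12 h the median was -0.42 in Cy5 alone and -0.64 under median centring. TYMS (thymidylate synthase) read 0.16, -0.19, -0.30 and -0.84, a change of -0.99, and MCM5, part of the replicative helicase, was at -0.89. CDC6, which loads that helicase, was the highest at 0.23, and PCNA was at 0.22 in the ratio but at -0.03 in Cy5 alone. In the ratio these medians were above those of the clustered histone genes at 6 and 12 h, but in Cy5 alone they were -0.36 against -0.34 at 6 h. Their part in the lower clustered histone signal was not tested.

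**Figure D5:**
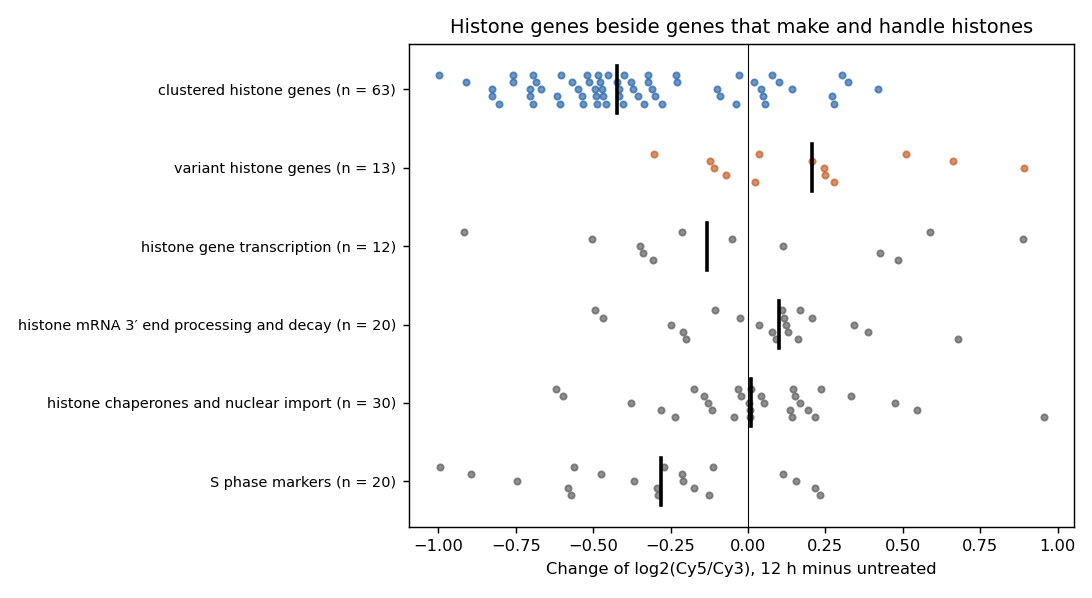
Change of log2(Cy5/Cy3) at 12 h for each measured clustered and variant histone gene and for the genes of 4 lists, with 1 point per gene and a black bar at each median. The clustered histone genes lie furthest to the left with a median of -0.42, the S phase markers follow at -0.28, and the processing and chaperone lists spread on both sides of 0.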

How the data were processed

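SUM149 RNA was labelled with Cy5 and hybridized against a Cy3 reference on 4 arrays of 1 slide. The authors deposited spot intensity with local background, a log10 ratio and flags from Feature Extraction 12.0.1.1, and a table of normalized log2 ratios whose normalization is not given in the sources used here. From the deposited median intensity, background was corrected by normexp (offset 50), control spots and flagged outliers were left out, and loess and Aquantile were applied (limma 3.58.1, R 4.3.3). The brightest Cy3 probe stood for a gene. Cy5 alone was quantile normalized. A gene counted as changed at 2-fold, or at 1.5-fold as an alternative. Symbols are those of the authors' table. All 87 were matched to RefSeq (GRCh38.p14), 86 by accession and 1 by an older symbol, and 77 of the 84 protein-coding genes had a promoter entry. The array was annotated on another build, so no array coordinates are given. Members and lists were chosen with earlier results of these data known. Values on all arrays are given for the highest and lowest 12 h change of each class and for the polyadenylated set, and other genes by range. Damaged areas were windows of 13 rows and 7 columns with 10% or more defective spots. The normalization was tested on simulated data with planted log2 changes of 1.5 or 2 in either direction. Only 56.5% of them were recovered past 2-fold, at a median of 0.68 of the planted log2 change. True changes past 2-fold can thus be read as under it. The planted spots were drawn from all spots above background, and recovery was not read by brightness. Of the measured clustered genes 44 had 1000 units of Cy5 or more, and the recovery for such bright probes is not given. No other offset was simulated. Tables were made in Python 3.11.15 with pandas 2.3.3 and matplotlib. The number of arrays limits the precision.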

Additional observations from a re-analysis of the deposited data

How the results depend on the processing

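No paired analysis was possible because every time is a single array, and no replicate could be left out. The clustered median stayed below 0 under every alternative run, from -0.16 to -0.021 at 3 h, from -0.46 to -0.27 at 6 h and from -0.81 to -0.42 at 12 h, while the variant median lay between 0.025 and 0.11 at 3 h. Median centring gave clustered medians of -0.46 at 6 h and -0.81 at 12 h and variant medians of -0.052 and -0.17. All genes then had medians of -0.084 and -0.16. Cy5 alone gave -0.53 for clustered genes and 0 for variants at 12 h. The clustered H1 median at 3 h turned from 0.13 to -0.12 with Feature Extraction's processed signals, and the cause was not tested.

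Counts past 2-fold rested on few genes near the line. At 3 h Cy5 alone had 2 falls. At 6 h an offset of 1, no background subtraction and the authors' table each gave 1 rise and processed signals 2, and median centring and Cy5 alone each gave 1 fall. At 12 h an offset of 1, no subtraction and processed signals each gave 1 rise. Falls at 12 h numbered 1 with an offset of 1, with no subtraction and with the authors' table, 3 in Cy5 alone, 4 with processed signals and 13 with median centring. The shares of all genes past 2-fold under these other settings are not given here. At 1.5-fold there were 3, 1 and 2 rises and 0, 4 and 16 falls at 3, 6 and 12 h. Leaving out the dim-probe filter or damaged areas, averaging probes, choosing the probe by Cy5 and adding the other members moved none of these medians by more than the technical SD and none of the counts by over 1.5 times. The offset of 50 shrinks changes of dim probes, and the probe sequences, which would show cross-hybridization, were not used here.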
